A study of Mus musculus with 8 samples.

Results

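The genes described here were 43 genes of the cell cycle, namely 17 genes that act in S phase, 23 genes that act in G2 phase and mitosis (G2/M), and 3 inhibitors of cyclin-dependent kinases (CDK). They were listed by symbol, and all 43 were matched among the 49315 genes of the count tables, of which 32464 had a symbol. The study sequenced RNA from 7 populations of mouse bone marrow stromal cells, clusters 1 to 7, and from a sample titled as input, with 1 library each. The labels give the input the same cell type as the clusters and do not say whether its cells were sorted, so what this library held is not settled. For the clusters, cells without CD31, CD45 and TER119, the surface antigens of endothelial cells, leukocytes and erythroid cells, were sorted by FACS with antibodies to Sca-1, CD140a, CD24, CD39 and CD54. By their labels, all 8 libraries came from wild type C57BL/6J mice at post natal 6 weeks, and no treatment was labelled. The study's methods name C57BL/6JJcl mice. A population is defined by its gate alone, the number of mice per library was not given in the labels, and the labels describe the same extraction from crushed marrow for every library, whereas the study's methods give collected cells and less RNA per library.

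The count tables held 24205863, 25349917, 27102715, 32549319, 12833648, 31669132 and 33238133 reads on genes for clusters 1 to 7, in that order, and 20162876 for the input. Levels are given as RPKM, the read count divided by exon length and by the total of the library, so that genes can be compared per length. Levels and orders are by total count unless TMM factors, another scaling described with the composition of the libraries, are named. Because each population had 1 library, no spread between samples could be measured, and no p-value is given. Intervals at 95% are exact Poisson intervals for a level and exact binomial intervals for a ratio of 2 libraries, and they cover counting error only. All 43 genes had RPKM above 2 in at least 1 of the sorted libraries, and 33 of them in all 7. Among the S and G2/M genes, the lowest count in a sorted library was 51, for Gins2 in cluster 5.

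In the cell cycle, E-type cyclins with their kinase start S phase, the MCM helicase is loaded onto replication origins and unwinds DNA, and the clamp PCNA holds the polymerases on the template. A-type and B-type cyclins with CDK1 then drive mitosis, Aurora and Polo-like kinases and the BUB proteins control the attachment of chromosomes to the spindle, and the anaphase-promoting complex ends mitosis by marking cyclins for destruction. Most stromal cells of adult marrow are known to divide rarely, whereas blood progenitors beside them divide often, and CDK inhibitors such as p21 and p27 hold cells in G1. In a bulk library, fewer dividing cells and less RNA of these genes per cell cannot be told apart.

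The promoters of S and G2/M genes are known to carry different sequence elements, and some are shown here as a description. The balance between the levels of both groups differed most in clusters 4 and 2, as given below, and a link to these elements was not tested. S phase genes are known targets of E2F factors, and G2/M genes of complexes that bind the cell cycle genes homology region (CHR), often near CCAAT boxes. RefSeq promoters (GRCm38.p6), from 250 bases before to 50 after the start site, were matched for 36 of the 43 genes. They were searched on both strands for TTTGAA as CHR, for CCAAT, and for TTCCCGC or TTTGGCG as E2F sites, and matches on opposite strands may overlap, as in CCAATTGG. Promoters of Ccne2, Mcm4, Gins2, Ccna2, Aurkb, Kif20a and Tpx2 were not used here. CHR was present in 14 of 19 G2/M promoters (73.7%) and in 1 of 14 S promoters (7.14%), that of Mcm2, against 17.9% of all 32851 promoters. CCAAT was present in 17 of 19 G2/M promoters (89.5%) and 9 of 14 S promoters (64.3%), against 37.4% of all. An E2F site was present in 8 of 14 S promoters (57.1%) and 0 of 19 G2/M promoters, against 5.99% of all. Shown are the 3 G2/M genes with the highest mean RPKM among those with CHR and CCAAT, with both in capitals, and the 2 S genes with the highest mean RPKM among those with an E2F site, with that in capitals. A match describes the letters and is neither a bound site nor a cause of a level.
Ccnb2, chr9:70421525-70421804, minus strand: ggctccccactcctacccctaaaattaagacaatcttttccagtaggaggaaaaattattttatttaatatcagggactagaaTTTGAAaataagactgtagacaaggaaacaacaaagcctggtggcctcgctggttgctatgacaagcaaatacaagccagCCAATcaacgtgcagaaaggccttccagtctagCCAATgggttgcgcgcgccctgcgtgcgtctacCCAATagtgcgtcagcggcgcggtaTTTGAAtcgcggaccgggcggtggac
Ube2c, chr2:164769679-164769958, plus strand: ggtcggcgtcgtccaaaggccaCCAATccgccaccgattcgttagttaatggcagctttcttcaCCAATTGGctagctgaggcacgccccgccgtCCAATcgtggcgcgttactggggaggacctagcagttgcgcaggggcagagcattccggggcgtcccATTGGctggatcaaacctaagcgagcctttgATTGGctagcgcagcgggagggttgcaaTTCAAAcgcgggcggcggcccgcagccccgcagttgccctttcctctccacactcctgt
Cdc20, chr4:118437314-118437593, minus strand: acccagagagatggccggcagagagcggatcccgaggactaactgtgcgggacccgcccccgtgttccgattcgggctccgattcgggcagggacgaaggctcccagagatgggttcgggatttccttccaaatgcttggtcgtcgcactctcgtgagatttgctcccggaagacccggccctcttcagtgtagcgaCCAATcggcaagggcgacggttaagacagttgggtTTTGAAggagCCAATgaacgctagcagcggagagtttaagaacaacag
Mcm6, chr1:128359676-128359955, minus strand: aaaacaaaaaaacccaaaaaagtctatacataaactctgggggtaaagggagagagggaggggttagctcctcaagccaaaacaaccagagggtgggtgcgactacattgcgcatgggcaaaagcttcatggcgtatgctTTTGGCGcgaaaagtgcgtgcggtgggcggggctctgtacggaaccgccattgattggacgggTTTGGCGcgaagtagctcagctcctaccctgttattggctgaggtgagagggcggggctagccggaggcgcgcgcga
2810417H13Rik, chr9:65890073-65890352, plus strand: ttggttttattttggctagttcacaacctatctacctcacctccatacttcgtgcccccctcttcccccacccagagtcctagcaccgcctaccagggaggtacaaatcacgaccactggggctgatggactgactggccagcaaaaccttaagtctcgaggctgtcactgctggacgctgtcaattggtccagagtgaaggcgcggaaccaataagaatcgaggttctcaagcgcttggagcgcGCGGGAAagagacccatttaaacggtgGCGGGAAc
Each run holds 280 bases, of which 30 follow the start site. In Ccnb2, CHR matches began at position -167 and at position 5, with CCAAT at -87, -54 and -21. In Cdc20, the CHR began at -18 between CCAAT boxes at -53 and -8. In Ube2c, the CHR on the opposite strand began at -29, downstream of 6 CCAAT matches between -228 and -57. The E2F sites of Mcm6 began at -110 and -47, and those of 2810417H13Rik, on the opposite strand, at -5 and 23. The G2/M genes highest in cluster 2 and those highest in cluster 7, described below, held CHR in 6 of 9 (66.7%) and 7 of 9 (77.8%) promoters.

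The sorted libraries held stromal RNA together with RNA of blood cells. Of 9 stromal markers, 7 were more than 2-fold above the mean of the other sorted libraries in cluster 7 by total count (6.37% of all genes) and 4 with TMM factors (4.21%), and 6 and 7 were more than 2-fold below it in cluster 2 (3.19% and 4.08%). Cluster 7 was thus high for stromal markers too. In cluster 4, 4 of the 9 were more than 2-fold above on both scales (3.97% and 3.74% of all genes), and 1 was below. Dcn, which encodes decorin, reached 6424 in cluster 7 and 8008 in the input, whereas Col1a1, the main collagen of bone, had RPKM of 3979, 3435, 6809.5, 1962, 5004, 15952 and 2595 in clusters 1 to 7, and 691 in the input. Pdgfra, which encodes CD140a, one of the antigens of the sort, was at 28.1 in cluster 1 but at 4.37, 7.51 and 7.44 in clusters 2, 5 and 6. Ptprc, which encodes CD45, was at 1.69 in cluster 3 and 9.26 in cluster 7, although CD45 was used to remove leukocytes. Cluster 5 stood apart by its composition, because Lars2 took 22.8% of its counts, mmu-mir-689-2 took 7.73% and Rn18s-rs5 took 4.25%, which lowers the RPKM of its other genes. In cluster 2 the same loci took 7.38%, 2.44% and 0.557%, and Lars2 took at most 1.06% in the other sorted libraries. Levels were therefore also scaled by TMM factors of edgeR, which moved log2 values by 0.31 for cluster 5, by 0.26 for cluster 6, by -0.26 for cluster 1 and by -0.16 for cluster 7, and by at most 0.10 in the other sorted libraries.

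All 40 S and G2/M genes were detected in every library. Their summed RPKM was 285, 371, 224, 269, 276, 343 and 446 in clusters 1 to 7, and 602 in the input. They took from 0.0900% of the counts in cluster 3 to 0.172% in cluster 7. Cluster 7 was the highest of the sorted libraries and cluster 3 the lowest. For a single gene, the range of log2(RPKM + 1) over the 7 sorted libraries had a median of 1.14 and went from 0.30 for Tyms to 1.62 for Bub1b. Of the 40 genes, 26 (65.0%) had a range above 2-fold, against 70.6% of the 12360 genes that had RPKM above 2 in any sorted library. The share was 9 of 17 (52.9%) for the S genes and 17 of 23 (73.9%) for the G2/M genes. On this scale, the share of the 40 genes was thus near that of all genes. The added 1 narrows the range of genes with low RPKM, such as Bub1, with a range of 1.49 but a ratio of RPKM of 4.93.

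**Figure D1:**
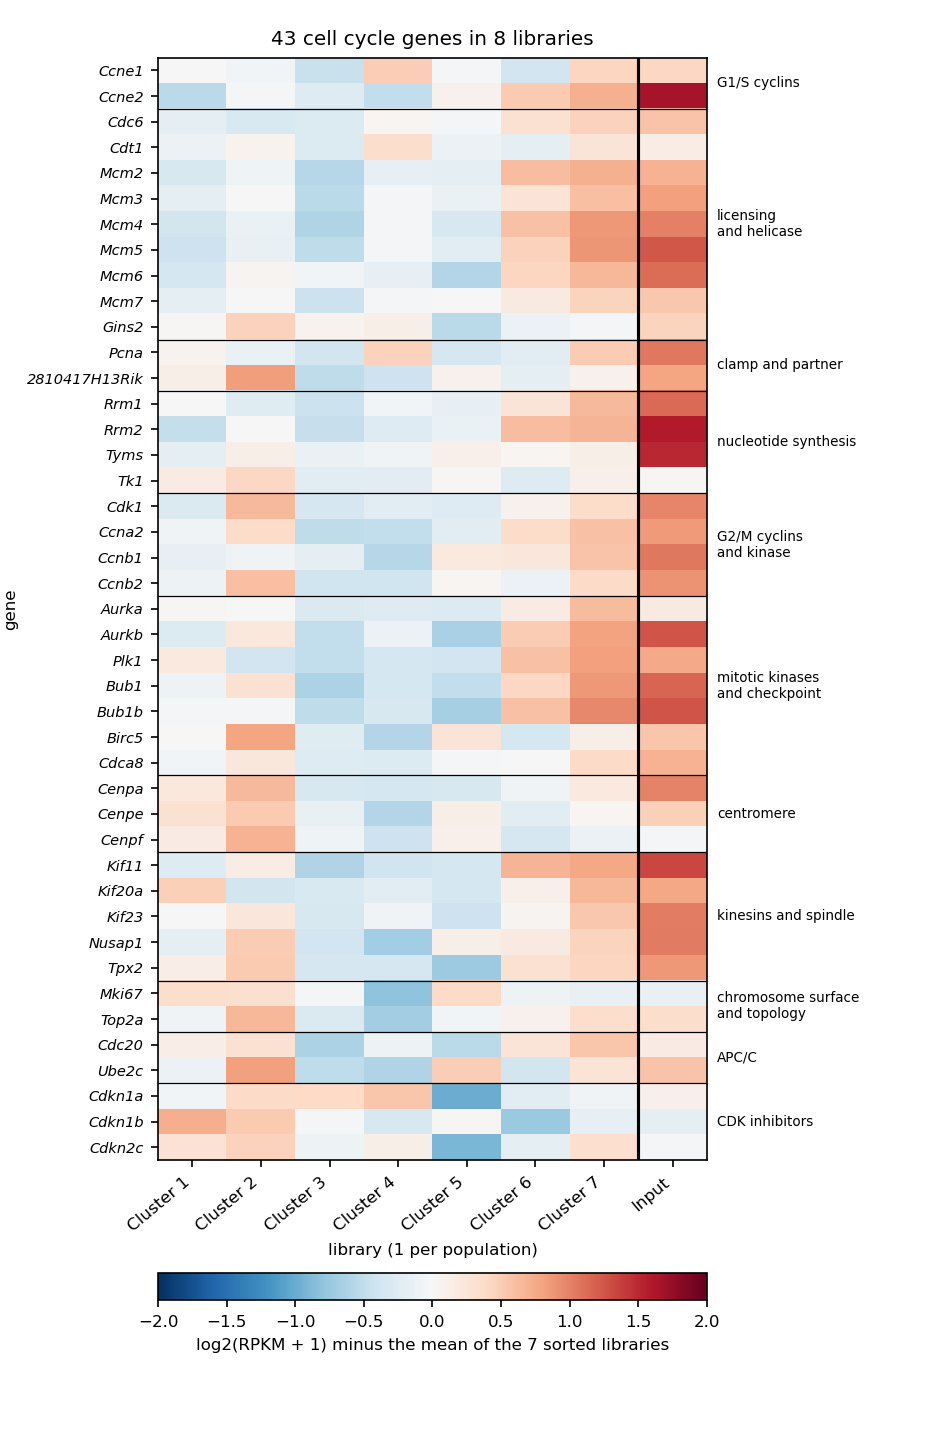
Heat map of the 43 genes (rows, grouped by role) in the 8 libraries (columns), coloured by log2(RPKM + 1) minus the mean of the 7 sorted libraries. Cluster 7 and the input lie above the mean for most S and G2/M genes, cluster 3 lies below it for 39 of 40, and cluster 4 for all 23 G2/M genes.

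Among the S phase genes, Ccne1 and Ccne2, which encode the E-type cyclins of the G1/S transition, differed in their order. Ccne1 had RPKM of 6.04, 5.82, 4.21, 9.01, 6.001, 4.45 and 8.59 in clusters 1 to 7, and 8.42 in the input. Ccne2 had RPKM of 2.12, 3.40, 2.76, 2.22, 3.79, 5.48 and 6.42 in clusters 1 to 7, and 13.1 in the input. Clusters 4 and 7 were high for Ccne1 and could not be told apart, with a ratio of 1.05 (0.948 to 1.16), whereas clusters 7 and 6 were high for Ccne2 and cluster 4 was low. Of the exon bases of Ccne2, 17.4% overlap Ints8 on the other strand, and whether strand was used in counting is not given in the sources used here.

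The 9 genes of replication licensing and the helicase were Mcm2, Mcm3, Mcm4, Mcm5, Mcm6 and Mcm7, which encode the 6 subunits of the MCM ring, Cdc6 and Cdt1, which load it, and Gins2, a subunit of the active helicase. Mcm6 had RPKM of 9.91, 13.4, 12.5, 11.4, 8.28, 17.8 and 21.2 in clusters 1 to 7, and 29.1 in the input. Mcm3 had RPKM of 9.74, 11.2, 7.34, 10.8, 10.03, 13.6 and 17.3 in clusters 1 to 7, and 20.4 in the input. For each of the 6 MCM ring genes, cluster 7 was the highest and cluster 6 the second of the sorted libraries by total count, while with TMM factors cluster 6 was the highest for all but Mcm5. The ratio of the highest to the lowest library lay between 1.94 (1.79 to 2.10) for Mcm7 and 3.08 (2.79 to 3.41) for Mcm4. Cdt1 was instead highest in cluster 4, at 7.08, Cdc6 in cluster 7, at 2.96, and Gins2 in cluster 2, at 2.91, although 67.3% of the exon bases of Gins2 overlap Gse1 on the other strand. Of the exon bases of Mcm7, 12.6% overlap other genes, namely Cops6, Ap4m1, Mir25 and Mir93.

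Pcna, the replication clamp, was the most abundant S or G2/M gene in every library except cluster 6, where Rrm2 was. Its RPKM was 38.3, 33.3, 27.98, 50.4, 28.7, 31.4 and 52.5 in clusters 1 to 7, and 76.9 in the input. Clusters 7 and 4 were the highest and did not differ beyond counting error, with a ratio of 1.04 (0.996 to 1.09). The partner of PCNA encoded by 2810417H13Rik (PCLAF) had another order, with RPKM of 12.7, 21.6, 7.87, 8.43, 12.4, 10.03 and 12.4 in clusters 1 to 7, and 20.9 in the input. Cluster 2 was 1.71 (1.60 to 1.82) times the next library, cluster 1, and cluster 4, high for Pcna, was the second lowest for its partner. The pseudogenes Pcna-ps1 and Pcna-ps2, which may share reads with Pcna, held 531 counts over the 8 libraries.

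Of the genes of nucleotide synthesis, Rrm1 and Rrm2 encode the subunits of ribonucleotide reductase. Rrm2 had RPKM of 16.2, 23.2, 16.5, 19.1, 20.9, 35.8 and 37.6 in clusters 1 to 7, and 70.6 in the input. Rrm1 had RPKM of 5.45, 4.51, 3.86, 5.26, 4.83, 6.75 and 9.16 in clusters 1 to 7, and 13.3 in the input. Clusters 6 and 7 were the highest for both, and stood well above the other libraries for Rrm2. Tyms, thymidylate synthase, varied the least of the 40 genes by total count, with a ratio of the highest to the lowest library of 1.31 (1.16 to 1.48), but its ratio was 1.91 with TMM factors, where Cdca8 varied the least, at 1.58. Tk1, which salvages thymidine, was highest in cluster 2, at 4.34.

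Of the 23 G2/M genes, 12 had their maximum in cluster 7 (25.3% of all genes), 10 in cluster 2 (22.8%) and 1 in cluster 5 (4.73%) by total count. With TMM factors, cluster 2 held 8 of these maxima (19.5% of all genes), clusters 6 and 7 held 6 each (20.3% and 16.3%) and cluster 5 held 3 (10.7%). Ccnb2, a B-type cyclin at chr9:70407692-70421547 (GRCm38), had RPKM of 18.03, 30.1, 14.6, 14.6, 20.1, 17.9 and 25.6 in clusters 1 to 7, and 37.2 in the input. Ccna2, cyclin A2, had RPKM of 8.22, 11.5, 5.80, 5.87, 7.29, 11.6 and 13.6 in clusters 1 to 7, and 16.5 in the input. Both were low in clusters 3 and 4, but Ccnb2 was highest in cluster 2 and Ccna2 in cluster 7. Cdk1, their kinase, was highest in cluster 2, at 11.03, and Ccnb1 in cluster 7, at 8.005, against 4.72 in cluster 2. The pseudogene Ccnb2-ps, which may share reads with Ccnb2, held 157 counts in the input and from 0 to 16 in the sorted libraries. Of the exon bases of Ccna2, 12.5% overlap Exosc9 on the other strand.

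Mitotic kinases and checkpoint genes held the largest ratio of the S and G2/M genes, that of Bub1, a kinase of the spindle checkpoint. Its RPKM was 1.65, 2.51, 0.847, 1.24, 1.04, 2.80 and 4.18 in clusters 1 to 7, and 5.39 in the input, and the ratio of cluster 7 to cluster 3 was 4.93 (3.99 to 6.16). Bub1b, which encodes the checkpoint protein BUBR1, followed by total count with a ratio of cluster 7 to cluster 5 of 4.35 (3.51 to 5.46). Aurkb, the kinase of the chromosomal passenger complex, had RPKM of 3.79, 5.73, 3.13, 4.35, 2.70, 7.26 and 9.16 in clusters 1 to 7, and 12.8 in the input. Birc5, which encodes survivin of the same complex, had RPKM of 9.24, 16.6, 7.60, 5.79, 11.1, 6.96 and 10.05 in clusters 1 to 7, and 13.97 in the input. The kinase was thus highest in clusters 7 and 6, and survivin in cluster 2, at 1.498 (1.35 to 1.66) times cluster 5, with cluster 6 the second lowest by total count and the fourth lowest with TMM factors. Cdca8, which encodes borealin of this complex, was highest in cluster 7, at 6.74, and so, by total count, were Aurka, at 8.29, and Plk1, at 8.04.

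All 3 centromere genes, Cenpa, Cenpe and Cenpf, were highest in cluster 2 and lowest in cluster 4 on both scales. Cenpa, the histone H3 variant of centromeres, had RPKM of 6.54, 9.22, 4.23, 4.12, 4.23, 5.23 and 6.45 in clusters 1 to 7, and 11.99 in the input. Cenpe, a kinetochore kinesin, had RPKM of 2.96, 3.61, 1.90, 1.14, 2.48, 1.75 and 2.31 in clusters 1 to 7, and 3.49 in the input. The ratios of cluster 2 to cluster 4 were 2.24 (2.05 to 2.45) for Cenpa, 3.17 (2.78 to 3.62) for Cenpe and 3.77 (3.34 to 4.26) for Cenpf.

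Of the kinesins and spindle genes, Kif11, Kif20a and Kif23 were highest in cluster 7 by total count, and Nusap1 and Tpx2 in cluster 2. Of the exon bases of Kif20a, 33.2% overlap Cdc23 on the other strand. Nusap1, which bundles spindle microtubules, had RPKM of 4.51, 7.90, 3.79, 2.86, 5.78, 6.08 and 7.45 in clusters 1 to 7, and 11.8 in the input. Tpx2, an activator of Aurora A, had RPKM of 4.43, 6.16, 2.94, 2.95, 1.999, 5.11 and 5.65 in clusters 1 to 7, and 8.04 in the input. Clusters 2 and 7 could not be told apart for either, with ratios of 1.06 (0.966 to 1.16) and 1.09 (0.986 to 1.20). With TMM factors, Kif11 and Tpx2 were highest in cluster 6.

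Mki67, the gene of the proliferation antigen Ki-67 at chr7:135689784-135716361, was highest in cluster 5. Its RPKM was 8.11 (7.76 to 8.48), 7.96 (7.61 to 8.31), 6.05 (5.76 to 6.35), 3.11 (2.92 to 3.30), 8.45 (7.96 to 8.97), 5.67 (5.41 to 5.94) and 5.46 (5.22 to 5.72) in clusters 1 to 7, and 5.47 (5.15 to 5.80) in the input. Clusters 5, 1 and 2 were high, the ratio of cluster 5 to cluster 1 was 1.04 (0.966 to 1.122), and cluster 4 was low. Cenpe and Cenpf had the same 3 high libraries and the same lowest one. By total count no other of the 40 genes was highest in cluster 5, whereas with TMM factors Tyms, Ccnb1 and Ube2c were highest there too. Mki67 was at 0.855 times the mean of the sorted libraries in the input, and 2 of the 40 genes were below that mean by total count, against 16 with TMM factors. Top2a, topoisomerase II alpha at chr11:98992943-99024189, had RPKM of 7.38 (7.02 to 7.75), 13.01 (12.5 to 13.5), 6.24 (5.93 to 6.56), 4.43 (4.20 to 4.68), 7.50 (7.005 to 8.01), 8.33 (7.9997 to 8.67) and 10.3 (9.90 to 10.6) in clusters 1 to 7, and 10.3 (9.80 to 10.7) in the input. Both genes were lowest in cluster 4, by ratios to the highest library of 2.72 (2.496 to 2.97) for Mki67 and 2.93 (2.75 to 3.13) for Top2a, but had their maxima in different libraries.

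Cdc20, which activates the anaphase-promoting complex, had RPKM of 17.2, 19.4, 9.66, 14.4, 10.4, 18.7 and 23.4 in clusters 1 to 7, and 17.4 in the input. Ube2c, the ubiquitin-conjugating enzyme of that complex, had RPKM of 14.5, 28.8, 10.9, 10.1, 22.8, 12.1 and 19.5 in clusters 1 to 7, and 24.02 in the input. By total count cluster 6 was among the high libraries for Cdc20 and among the low ones for Ube2c, which was highest in cluster 5 with TMM factors and of whose exon bases 22.8% overlap Tnnc2 on the other strand.

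**Figure D2:**
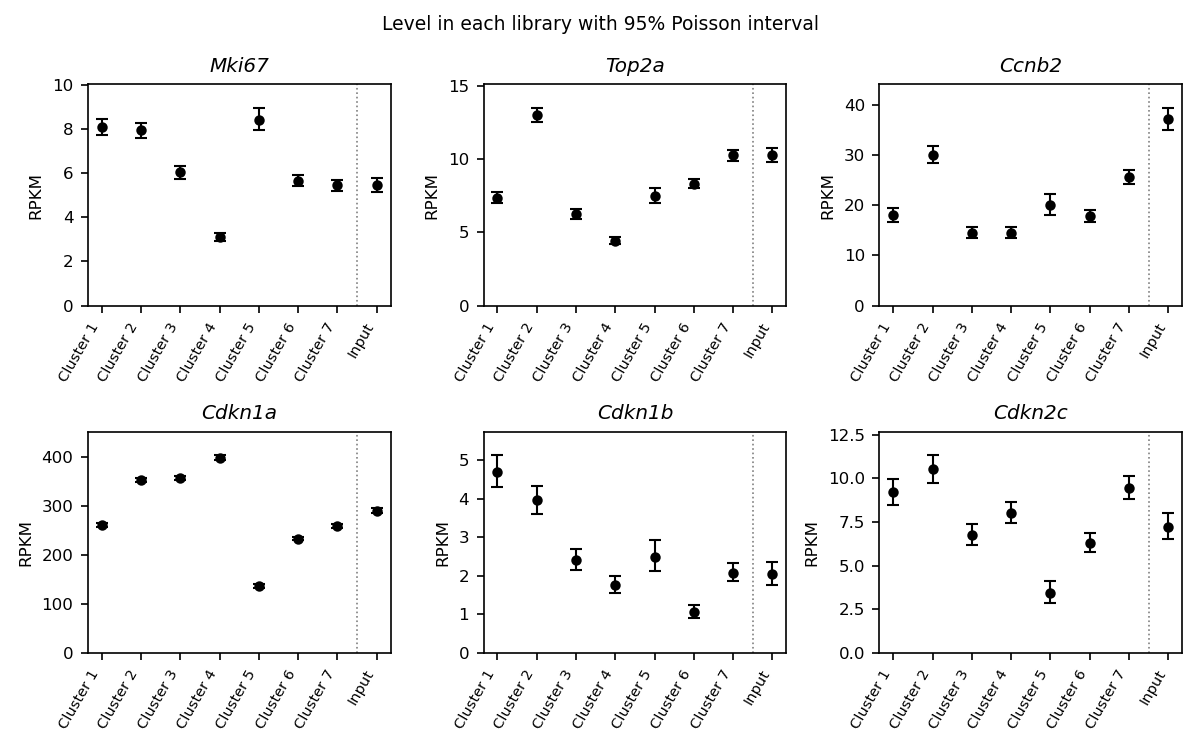
RPKM (y axis) of single genes, among them Mki67, Top2a and the 3 CDK inhibitors, in the 8 libraries (x axis), with points for the level and bars for the 95% Poisson interval. Mki67 and Top2a are lowest in cluster 4, Cdkn1a and Cdkn2c in cluster 5 and Cdkn1b in cluster 6.

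The balance between the S and the G2/M genes differed most in cluster 4. The mean log2(RPKM + 1) of the 23 G2/M genes was 2.64, 2.97, 2.27, 2.23, 2.46, 2.76 and 3.09 in clusters 1 to 7, and 3.38 in the input. For the 17 S genes it was 2.82, 3.04, 2.64, 2.96, 2.84, 3.16 and 3.47, and 3.86 in the input. Cluster 4 was thus the lowest library for the G2/M genes, and in the middle of the order for the S genes. The mean of the S genes exceeded that of the G2/M genes by 0.73 in cluster 4, by 0.07 in cluster 2 and by 0.17 to 0.40 in the other sorted libraries. Summed RPKM within a library gives a ratio of S to G2/M genes that does not depend on the scaling between libraries. It was 0.969, 0.796, 1.10, 1.58, 0.998, 1.17 and 1.16 in clusters 1 to 7, and 1.33 in the input. Without Pcna, it was 1.09 in cluster 4, 0.973 in cluster 6 and 0.634 in cluster 2. Clusters 4 and 2 were the extremes of this ratio among the sorted libraries, with or without Pcna.

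**Figure D3:**
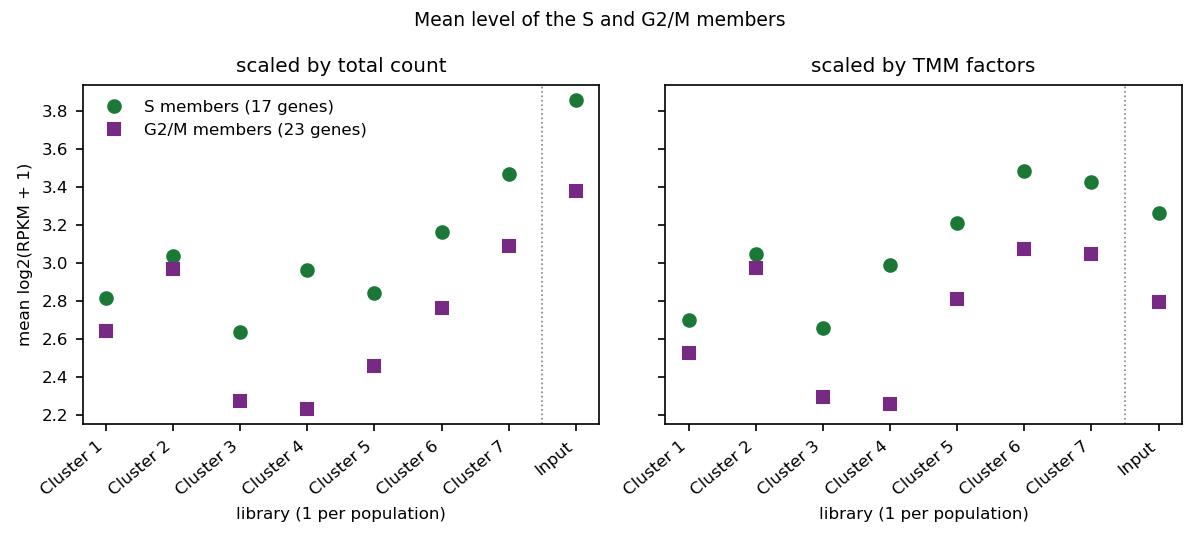
Mean log2(RPKM + 1) (y axis) of the 17 S genes and of the 23 G2/M genes in each library (x axis), scaled by total count and by TMM factors over all 8 libraries. The gap between S and G2/M genes is widest in cluster 4 and narrowest in cluster 2 on both scales, and the input is highest only by total count.

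The library with the highest and the lowest level was then counted over the 40 S and G2/M genes. By total count, 24 were highest in cluster 7 (12 S and 12 G2/M), against 25.3% of all genes tested, and 18 of these 24 were second in cluster 6. In cluster 2, 13 were highest (3 S and 10 G2/M), against 22.8% of all genes. Ccne1 and Cdt1 were highest in cluster 4, against 8.95%, and Mki67 in cluster 5, against 4.73%. None was highest in clusters 1, 3 or 6, where 21.3%, 9.85% and 7.1% of all genes were. Lowest were 17 in cluster 3, against 8.11% of all genes, and 11 in cluster 4, all of them G2/M genes, against 4.4%. Cluster 5 was the lowest for a further 6 (against 46.3%), cluster 1 for 3 (3.82%), cluster 2 for 2 (7.25%), cluster 6 for 1 (25.5%) and cluster 7 for 0 (4.59%). Cluster 5 was the lowest library for many genes of the transcriptome, but for few of the cell cycle genes.

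The highest library depended more on the scaling than the lowest did. With TMM factors, cluster 6 was highest for 14 of the 40 genes (20.3% of all genes), cluster 2 for 11 (19.5%), cluster 7 for 8 (16.3%), cluster 5 for 4 (10.7%) and cluster 4 for 3 (11.8%). Cluster 3 was lowest for 17 (10.2%), cluster 4 for 12 (6.76%), cluster 1 for 7 (9.44%), cluster 5 for 2 (28.3%) and cluster 2 for 2 (16.7%). Of the 17 genes lowest in cluster 3 by total count, 14 were lowest there on both scales, while Mcm5, Cdk1 and Cdt1 passed to cluster 1, and all 11 of cluster 4 were. Of the 24 genes highest in cluster 7 by total count, 8 kept that library, and of the 13 of cluster 2, 11 did. Between clusters 6 and 7, all 17 S and 22 of 23 G2/M genes were higher in cluster 7 by total count, where 76.5% of all genes were, and 6 and 10 with TMM factors, so the order of these libraries was not settled.

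**Figure D4:**
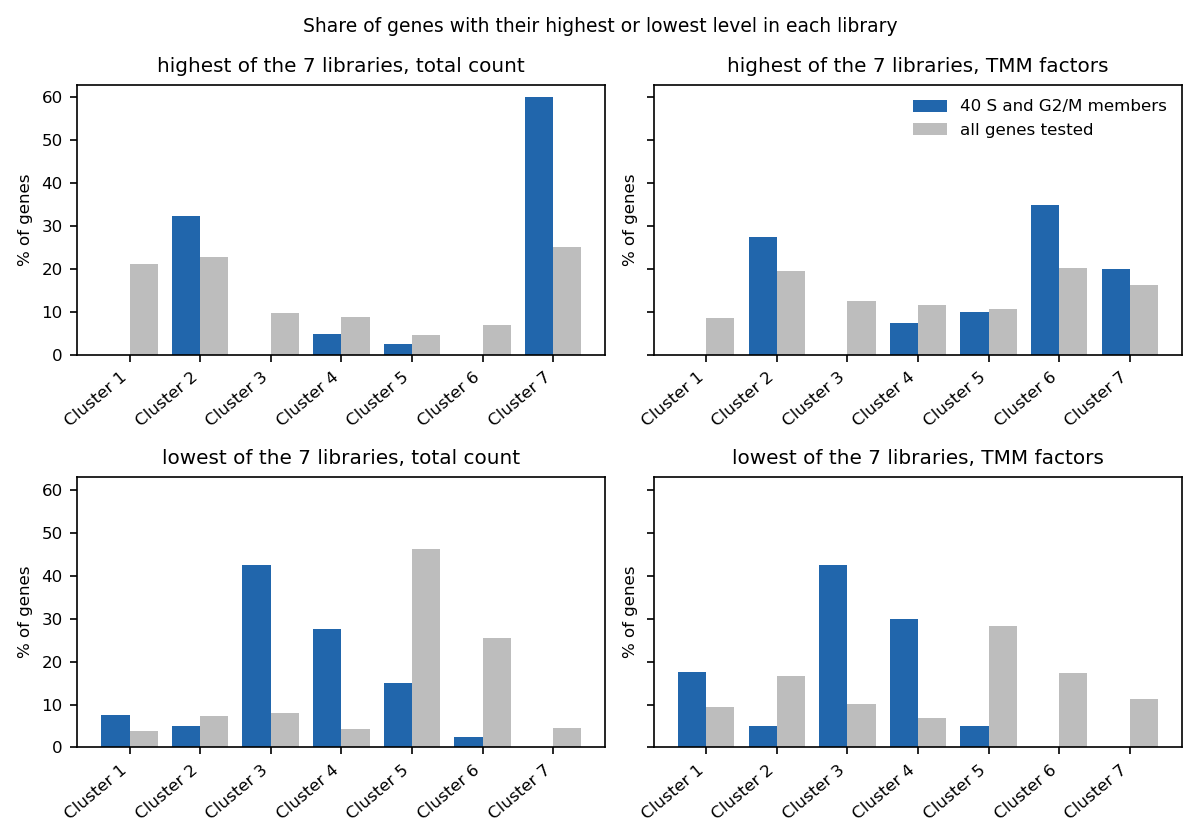
Share in % (y axis) of the 40 S and G2/M genes and of all genes tested whose highest (top) or lowest (bottom) level of the 7 sorted libraries is in each library (x axis), by total count and by TMM factors. Clusters 3 and 4 hold most minima on both scales, and many maxima of cluster 7 pass to cluster 6 with TMM factors.

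Against the mean of the other 6 sorted libraries, cluster 3 was low for nearly all 40 genes. By total count, 14, 27, 1, 5, 13, 26 and 37 of them were above that mean by any amount in clusters 1 to 7, beside 76%, 52.3%, 57.3%, 57.1%, 16.4%, 32.6% and 67.1% of all genes. With TMM factors these were 4, 22, 1, 5, 25, 34 and 32, beside 49.1%, 45.6%, 55.1%, 53.4%, 33.1%, 51.4% and 55.4%. Gins2 was the gene above the mean in cluster 3 by total count, and none of the 23 G2/M genes was above it in cluster 4 on either scale. The median log2 difference of the 40 genes was -0.09, 0.21, -0.41, -0.30, -0.17, 0.19 and 0.57 in clusters 1 to 7, beside 0.25, 0.03, 0.06, 0.06, -0.49, -0.23 and 0.21 for all genes. With TMM factors it was -0.33, 0.12, -0.43, -0.34, 0.15, 0.46 and 0.41, beside -0.01, -0.06, 0.04, 0.03, -0.21, 0.02 and 0.06 for all genes. Relative to all genes, the 40 genes were below in clusters 1, 3 and 4 and above in clusters 2, 5, 6 and 7 on both scales.

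Few of these differences passed 2-fold. By total count, Mcm4 (1.00), Mcm5 (1.02), Bub1 (1.00) and Bub1b (1.123) passed in cluster 7 on the log2(RPKM + 1) scale, against 6.37% of all genes, and Plk1 stood just outside, at 0.95. None of the 40 passed in clusters 1 to 6, against 5.19%, 8.14%, 3.55%, 3.97%, 3.63% and 3.73% of all genes. None was more than 2-fold below in clusters 1 to 7, against 1.97%, 3.19%, 3.42%, 1.42%, 11.7%, 9.44% and 2.72%. These counts depended on the pseudocount, since with 0.1 in place of 1, 4 genes passed above in cluster 2 and 8 in cluster 7, and 1, 2 and 2 passed below in clusters 3, 4 and 5. With TMM factors, 2 genes passed above in cluster 6, where 6.26% of all genes did, and none in cluster 7, where 4.21% did.

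Between pairs of sorted libraries, from 0 to 13 of the S and G2/M genes were more than 2-fold apart in RPKM + 1. The median was 2 over the 21 pairs. These counts are by total count, and most of the genes stood higher in cluster 7. It exceeded cluster 3 for 13 (against 9.88% of all genes), cluster 1 for 9 (4.76%) and cluster 4 for 9 (3.95%). It also exceeded cluster 5 for 11, near the 28.7% of all genes, and cluster 2 for 3, below the 14.5% of all genes. With TMM factors, the median log2 excess of cluster 7 over cluster 5 fell from 0.63 to 0.25 for the S genes. For the G2/M genes it fell from 0.63 to 0.22. Cluster 2 exceeded cluster 4 for 8 (9.27%), cluster 6 for 4 (17.3%), cluster 3 for 3 (9.64%) and cluster 5 for 1 (19.7%). Cluster 6 exceeded cluster 3 for 7 (5.9%), cluster 5 for 5 (15.4%), cluster 1 for 2 (5.82%) and cluster 4 for 2 (4.53%). Cluster 5 exceeded cluster 4 for 2 (5.2%) and cluster 3 for 1 (5.53%), and cluster 1 exceeded cluster 4 for 1 (3.71%). No gene was more than 2-fold apart in RPKM + 1 between clusters 1 and 2 (17.2% of all genes), 1 and 3 (8.53%), 1 and 5 (27.9%), 3 and 4 (11.8%), or 6 and 7 (19.2%). Without the added 1, some genes in these pairs were past 2-fold, among them Kif20a, at 3.92 in cluster 1 and 1.76 in cluster 2. By any amount, all 23 G2/M genes and 12 of 17 S genes were higher in cluster 6 than in cluster 4, where 33.0% of all genes were, and 21 of 23 G2/M and 10 of 17 S genes were higher in cluster 2 than in cluster 4, where 49.7% of all genes were. With TMM factors, 21 and 8 were, so the order of clusters 2 and 4 for the S genes was not settled.

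In the input, 15 of the 40 S and G2/M genes were more than 2-fold above the mean of the 7 sorted libraries, against 42.9% of the 19088 genes tested, and none was below, against 2.81%. The input was the highest of the 8 libraries for 25 of them, against 59.8%. Their median log2 difference was 0.83, beside 0.79 for all genes. The 19088 genes include those that passed the RPKM filter through the input alone. This raises that median and the shares of all genes high in the input, also with TMM factors. The 40 genes all passed through a sorted library, so these shares are not a like reference for them. Ccne2 had the largest ratio to the mean of the sorted libraries, 3.51, followed by Tyms at 3.39 and Rrm2 at 2.92. With TMM factors none of the 40 passed 2-fold, where 24.1% of all genes did, and 16 of the 40 were below the mean of the sorted libraries. Olfactory receptor genes, a measure of stray reads, were at an RPKM of 0.622 over 991 genes in the input and at 0.00252 to 0.0539 in the sorted libraries, and their part in the input values was not tested.

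The 3 CDK inhibitors differed from each other in their order over the libraries. Cdkn2c was highest in cluster 2 and lowest in cluster 5, as were Gins2 and, by total count, Tpx2. Cdkn1a, which encodes p21, a target of p53, lies at chr17:29090979-29100722 and stood at the 98.7th percentile of mean RPKM. Its RPKM was 261 (257 to 265), 353 (348 to 358), 357 (352 to 362), 398 (394 to 403), 136 (132 to 141), 233 (229 to 236) and 258 (255 to 262) in clusters 1 to 7, and 290.1 (285 to 295) in the input. Cluster 4, lowest for the G2/M genes, was the highest for Cdkn1a, at 1.116 (1.10 to 1.14) times cluster 3, the intervals of clusters 2 and 3 overlapped, and cluster 5 was the lowest. Cdkn1b, which encodes p27, at chr6:134920401-134925513, had RPKM of 4.70 (4.30 to 5.12), 3.96 (3.61 to 4.34), 2.41 (2.14 to 2.70), 1.75 (1.55 to 1.98), 2.499 (2.11 to 2.94), 1.05 (0.893 to 1.24) and 2.08 (1.85 to 2.32) in clusters 1 to 7, and 2.05 (1.77 to 2.36) in the input. Clusters 1 and 2 were high and cluster 6 was low, with a ratio of cluster 1 to cluster 6 of 4.46 (3.71 to 5.38). Cdkn2c, which encodes p18, an inhibitor of CDK4 and CDK6, at chr4:109660876-109667189, had RPKM of 9.21 (8.49 to 9.98), 10.5 (9.76 to 11.3), 6.77 (6.19 to 7.40), 8.03 (7.45 to 8.65), 3.42 (2.83 to 4.10), 6.31 (5.79 to 6.87) and 9.46 (8.84 to 10.1) in clusters 1 to 7, and 7.24 (6.54 to 7.99) in the input. Clusters 2, 7 and 1 were its highest libraries and cluster 5 its lowest, with a ratio of cluster 2 to cluster 5 of 3.07 (2.53 to 3.76). In cluster 5, Cdkn1a and Cdkn2c were more than 2-fold below the mean of the other libraries, with log2 differences of -1.151 and -1.07, against 11.7% of all genes, and neither passed with TMM factors. The highest and the lowest library of each inhibitor were the same on both scales.

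Further genes of the same processes were taken from lists made by known roles. Of 28 other S phase genes, 23 passed the filter on RPKM, of which 15 were highest in cluster 7 (25.3% of all genes) and 6 in cluster 2 (22.8%), and 9 were lowest in cluster 3 (8.11%). With TMM factors, of 24 genes, 7 were highest in each of clusters 6 and 7 (20.3% and 16.3%), 6 in cluster 5 (10.7%) and 4 in cluster 2 (19.5%), and 10 were lowest in cluster 3 (10.2%). Asf1b, a histone chaperone, had RPKM of 4.98, 8.47, 4.59, 8.17, 4.13, 12.1 and 14.3 in clusters 1 to 7. Pold1, a subunit of polymerase delta, had RPKM of 5.48, 3.96, 4.43, 4.95, 2.90, 7.55 and 9.40. Both were high in clusters 6 and 7, whereas Dut, which removes dUTP, was highest in cluster 2, at 26.4, and lowest in cluster 6, at 9.70. Gins4, of the same complex as Gins2, had RPKM between 12.2 in cluster 6 and 19.1 in cluster 7.

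Of 44 other G2/M genes, 38 passed the filter, of which 19 were highest in cluster 7 (25.3% of all genes) and 16 in cluster 2 (22.8%), and 12 were lowest in cluster 3 (8.11%), 11 in cluster 5 (46.3%) and 10 in cluster 4 (4.4%). With TMM factors, of 36 genes, 15 were highest in cluster 6 (20.3%), 12 in cluster 2 (19.5%) and 6 in cluster 7 (16.3%), and cluster 3 was lowest for 15 (10.2%), cluster 4 for 12 (6.76%) and cluster 5 for 2 (28.3%). By total count, all 38 were above the mean of the other libraries in cluster 7 (67.1% of all genes), 1 in cluster 3 (57.3%) and 4 in cluster 4 (57.1%). Their median log2 difference in cluster 7 was 0.42 by total count and 0.29 with TMM factors, beside 0.21 and 0.06 for all genes. Hmgb2, a chromatin protein, had RPKM of 75.03, 127, 51.4, 65.1, 77.5, 66.96 and 106 in clusters 1 to 7. H2afz, a histone variant, lay between 139.6 in cluster 6 and 246 in cluster 7. Ncaph, a condensin subunit, was at 1.13 in cluster 3 and 5.65 in cluster 7, and Cep55, which acts in the last step of cell division, was at 0.926 in cluster 5 and 4.07 in cluster 7. In these lists too, which were measured in the same libraries, the maxima moved with the scaling, and cluster 3 held the most minima on both scales.

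Of 23 G1 cyclins, kinases and factors of the E2F, DREAM and MYB-MuvB groups, 20 passed, of which 11 were highest in cluster 7 (25.3% of all genes) and 13 lowest in cluster 5 (46.3%), against 7 and 9 with TMM factors (16.3% and 28.3%). Cdk4, a kinase of D-type cyclins, lay between 18.8 in cluster 5 and 39.5 in cluster 2. Ccnd2, cyclin D2, had RPKM of 31.2, 20.1, 20.7, 36.9, 17.3, 8.91 and 22.8 in clusters 1 to 7, lowest in cluster 6. Cdk6 was at 7.07 in cluster 2 and between 1.22 and 2.44 in the other sorted libraries, the only gene of its list more than 2-fold above the others in any library. Of 11 other CDK inhibitors, pocket proteins and antiproliferative genes, 10 passed. Of these, 5 were highest in cluster 7 (25.3% of all genes) and 5 lowest in cluster 5, near the 46.3% of all genes. With TMM factors, 3 were highest in cluster 7 (16.3%) and 2 lowest in cluster 5 (28.3%). Cdkn1c, which encodes p57, had RPKM of 35.8, 255, 10.1, 97.1, 45.5, 156 and 52.6 in clusters 1 to 7, and 18.4 in the input, high in clusters 2 and 6 and low in cluster 3. Gas1, a growth arrest gene, had RPKM of 255, 94.8, 172, 311, 78.7, 84.8 and 254, and Btg2 lay between 108 in cluster 5 and 320.3 in cluster 4. Of 13 p53 targets other than Cdkn1a, 12 passed, of which 5 were lowest in cluster 6 (25.5% of all genes) and 4 highest in cluster 7 (25.3%), against 3 and 3 with TMM factors (17.3% and 16.3%). Phlda3 had RPKM of 74.9, 26.2, 62.9, 55.04, 24.4, 8.65 and 48.6 in clusters 1 to 7, and Eda2r had 3.29, 0.763, 1.40, 1.44, 0.767, 0.214 and 2.08. Both were highest in cluster 1 and lowest in cluster 6, unlike Cdkn1a, and Gadd45a lay between 37.4 and 90.5, also lowest in cluster 6.

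Genes of blood cells moved with the cell cycle genes in part. The 5 pan-haematopoietic genes Ptprc, Spi1, Coro1a, Laptm5 and Rac2 were all highest in cluster 7 on both scales (25.3% of all genes by total count and 16.3% with TMM factors) and all lowest in cluster 3 (8.11% and 10.2%). In cluster 7, all 5 by total count and 4 with TMM factors were more than 2-fold above the mean of the other sorted libraries (6.37% and 4.21%). Their summed RPKM was 169, 155, 108, 204, 168, 193 and 407 in clusters 1 to 7, and 511 in the input, with Coro1a the most abundant, at 42.1 in cluster 3 and 171 in cluster 7. With TMM factors over all 8 libraries it was 153, 156, 110.0, 209, 227, 249 and 393, and the summed RPKM of the 40 cell cycle genes was 258, 373, 227, 276, 373, 442 and 431. Cluster 3 was thus the lowest for both sums on both scales, and cluster 7 the highest for both by total count, whereas with TMM factors cluster 6 was the highest for the cell cycle genes. By total count, cluster 2 was second for the summed cell cycle genes and second lowest for the blood genes, and cluster 4 was second highest for the blood genes, but these places changed with TMM factors. Of 10 neutrophil and myeloid progenitor genes, 7 were highest in cluster 7 (25.3% of all genes) and 7 lowest in cluster 3 (8.11%), while with TMM factors 6 were highest in cluster 7 (16.3%), 2 lowest in cluster 3 (10.2%) and 8 in cluster 1 (9.44%), with a summed RPKM by total count from 10874 in cluster 3 to 28896 in cluster 7, highest in cluster 5 with TMM factors, and S100a9 the most abundant in every library. All 8 tested genes of monocytes and macrophages were highest in cluster 7 (25.3%), 6 of them with TMM factors (16.3%), where by total count their list summed to 688, against 82.8 in cluster 3, with Cd14 the most abundant.

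Of 7 tested B lineage genes, 5 were highest in cluster 7 (25.3% of all genes) and 5 lowest in cluster 3 (8.11%), against 3 and 5 with TMM factors (16.3% and 10.2%), and the list summed to 48.03 in cluster 3 and 123 in cluster 7. Of 10 tested erythroid genes, 9 were highest in cluster 5 on both scales (4.73% of all genes by total count and 10.7% with TMM factors). There, Hba-a1, the most abundant, reached 30376, although TER119 was used to remove such cells. Of the T and NK list, 1 of 7 genes, Nkg7, passed the filter and was highest in cluster 7 on both scales, Cd3e was at most 0.191 in the sorted libraries and 0.827 in the input, and Cd4 and Cd8a had no count in cluster 5. Of 5 tested megakaryocyte genes, none was highest in clusters 6 or 7 (7.1% and 25.3% of all genes by total count), and the 4 tested endothelial genes were lowest in cluster 6 by total count (25.5% of all genes), 2 of them with TMM factors (17.3%). Of 7 stem and progenitor genes, 3 passed the filter, and Kit, which did not, was at most 1.57 in the sorted libraries, in cluster 7. The part of RNA from blood cells in the levels of the cell cycle genes was not tested.

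**Figure D5:**
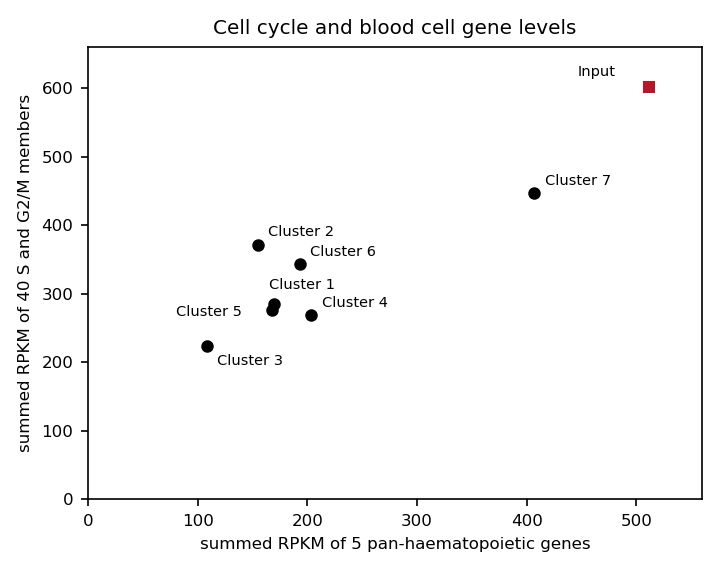
Summed RPKM of the 40 S and G2/M genes (y axis) against summed RPKM of the 5 pan-haematopoietic genes (x axis), 1 point per library, scaled by total count. Cluster 3 is lowest and cluster 7 highest of the sorted libraries on both axes, while cluster 2 lies at 371 against 155 and cluster 4 at 269 against 204.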

How the data were processed

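Raw counts of reads per Ensembl gene, not normalized, were deposited by the authors as 1 table for each library, with the exon positions (GRCm38) and exon length of each gene. Per the study's methods, reads were trimmed, aligned to mm9 by TopHat2 in Partek Flow 2.2 and quantified as RPKM. The mm9 build does not match the positions in the tables, and the counting tool and its use of strand are not given in the sources used here. From the counts, RPKM was calculated by total count and exon length and analysed as log2(RPKM + 1). Compared were 12360 genes that exceeded an RPKM of 2 in any sorted library (19088 over all 8 libraries). A difference was called past 2-fold, both thresholds being those of the study's methods. Totals of the sorted libraries ranged from 12833648 to 33238133. TMM factors and DESeq2 size factors served for scaling only, since 1 library per population allows no test. Values in every library are given for Mki67, Top2a, the inhibitors and the 2 genes of highest mean RPKM in each role, and further lists are represented by their 2 genes of highest mean RPKM and 2 of largest range. Bub1 and the genes of blood and stromal cells were named after their values were seen. The 43 genes and all lists were chosen with earlier results of these data known. The calculation was tested on simulated counts. Alternatives were another scaling, pseudocount, filter, total, depth or centre, and leaving out the cluster 5 library. Python 3.11.15, pandas 2.3.3, scipy 1.17.1, R 4.3.3, edgeR 4.0.16 and DESeq2 1.42.0 were used.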

Additional observations from a re-analysis of the deposited data

How the results depend on the processing

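Counts of the 40 S and G2/M genes by library were recomputed under 9 alternatives. Of 95 recomputed counts that were above 0 by total count, 68 stayed within 1.5 times that value, and of 155 that were 0, 140 stayed at 0, which says little about stability. With TMM factors, 7 genes were lowest in cluster 1, 4 highest and 2 lowest in cluster 5, 14 highest and 0 lowest in cluster 6 and 8 highest in cluster 7, while clusters 6 and 7 had 2 and 0 genes more than 2-fold above the others, and the input had 0. With DESeq2 size factors, 7 were lowest in cluster 1, 6 highest and 2 lowest in cluster 5, 17 highest and 0 lowest in cluster 6 and 4 highest in cluster 7, while clusters 5, 6 and 7 had 1, 2 and 0 genes above, and the input had 0. With a pseudocount of 0.1, 4 were above in cluster 2 and 8 in cluster 7, and 1 was below in cluster 3, 2 in cluster 4 and 2 in cluster 5. With RPKM above 2 in all libraries, 0 were lowest in cluster 2, 2 lowest in cluster 5 and 2 above in cluster 7. With totals that left out Lars2, Rn18s-rs5 and mmu-mir-689-2, 1 was above in each of clusters 2, 5 and 7, 1 below in cluster 4, 0 lowest in cluster 2, 0 highest in cluster 4, and 9 highest and 1 lowest in cluster 5. Without the cluster 5 library, 1 was highest in cluster 1, 2 lowest in cluster 6, 3 above in cluster 2 and 2 above in cluster 7. At equal depth, 0 were lowest in cluster 6. Against the median of the other libraries, 1 was above in cluster 2 and 7 in cluster 7. The cause was not tested. The number lowest in cluster 3 lay between 16 and 22 and that in cluster 4 between 9 and 12 under the 8 alternatives that recount minima. No paired analysis was possible because there was only 1 library for each population. With 1 library for each population, no spread between samples could be measured.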

Other observations

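Outside the lists, 11685 genes were compared with the mean log2(RPKM + 1) of the 40 S and G2/M genes over the 7 sorted libraries, which share their totals between all genes. Pearson's r, given as a description, had a median of 0.11, and 44 genes had r above 0.9. The 10 most alike were Iglv2, Faim3, Pyhin1, Spn, H2-DMb2, Rad17, Fcrla, Fam49b, Lrrc40 and Tuba8, with r from 0.971 for Iglv2 to 0.953 for Tuba8. With TMM factors, r of these genes lay between 0.857 for Faim3 and 0.989 for Tuba8. Iglv2 is a segment of an immunoglobulin light chain, H2-DMb2 acts in antigen presentation, Fcrla is a gene of B cells, Spn encodes the leukocyte antigen CD43, and Rad17 acts in the DNA damage checkpoint. H2-DMb2 had RPKM of 2.996, 4.64, 1.21, 1.92, 2.005, 3.69 and 5.19 in clusters 1 to 7, and 20.4 in the input. Rad17 had RPKM of 4.51, 6.196, 3.71, 4.11, 3.81, 5.09 and 6.70 in clusters 1 to 7, and 12.2 in the input. By total count, both were lowest in cluster 3 and highest in cluster 7, followed by clusters 2 and 6.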
